A study of Rattus norvegicus with 15 samples.

Results

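The genes for the receptors of serotonin, dopamine, noradrenaline, acetylcholine and histamine were examined in the inferior colliculus (IC), the auditory centre of the midbrain, of rats that convulse on loud sound and of rats that do not. The members were found by their symbols alone. They are all genes that the array names by a single symbol as a serotonin receptor (*Htr*), a dopamine receptor (*Drd*), an alpha or beta adrenoceptor (*Adra*, *Adrb*), a muscarinic receptor (*Chrm*), a nicotinic acetylcholine receptor subunit (*Chrn*) or a histamine receptor (*Hrh*). This gave 52 of the 14506 genes measured under a name, with 14 serotonin receptors, 5 dopamine receptors, 6 alpha adrenoceptors, 2 beta adrenoceptors, 5 muscarinic receptors, 16 nicotinic subunits and 4 histamine receptors. Each of the 52 genes was read by 1 probe set.

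The samples fall into 4 groups of male rats, all 12 weeks old. WAR S holds 5 arrays of Wistar audiogenic rats (WAR), a strain selected for seizures evoked by sound and supplied by the School of Medicine of Ribeirão Preto (Brazil), whose IC was taken 60 min after the seizure that acoustic stimulation set off. Wistar S holds 2 arrays of Wistar albino rats from Charles River Laboratories that were given the same sound. WAR N (4 arrays) and Wistar N (4 arrays) hold rats of the same strains and suppliers that were not exposed to sound and are called naïve. By the labels, strain and supplier cannot be told apart. For the rats of its own experiments, the study names the same facility for both strains. For the arrays, which it took from earlier work, it names no supplier and gives other numbers of stimulated rats. The labels were followed here. The labels title every array a biological replicate, but no source states outright that each came from a single rat, so p-values measure the spread between these samples. RNA of the whole IC was used, and in such bulk tissue fewer cells of a type and less RNA per cell cannot be told apart.

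These receptors carry the signals of the ascending modulatory systems, whose cell bodies lie in the raphe nuclei, the locus coeruleus, the midbrain dopamine groups, the cholinergic tegmental nuclei and the hypothalamus, and whose fibres reach the IC. Most of them are G protein-coupled receptors that raise or lower cyclic AMP or activate phospholipase C. The exceptions are the nicotinic receptors and the serotonin 5-HT3 receptor, which are ion channels built as rings of subunits that open when acetylcholine or serotonin binds. Serotonin is known to change how IC neurons respond to sound, and drugs at several of these receptors alter audiogenic seizures in rodents.

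Expression was given per probe set on the log2 scale, as RMA makes it after correcting background and setting the arrays to a common distribution, so a difference of 1 is a doubling. The array medians ran from 7.21 to 7.27 in WAR S, from 7.20 to 7.22 in Wistar S, from 7.08 to 7.14 in WAR N and from 7.01 to 7.08 in Wistar N. Stimulated arrays shared 2675 to 3286 identical values per pair, and no pair of a stimulated and a naïve array shared any, so WAR was set against Wistar only within the stimulated or within the naïve arrays. Such ties reached the receptor genes as well. Of the 52, 27 held fewer than 7 distinct values over the 7 stimulated arrays, and 8 had the same value in both Wistar S arrays. The spread within groups was smaller in stimulated arrays, with a median residual SD of 0.0912 over the 52 genes, than in naïve arrays, where it was 0.197.

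A Wistar N array stood apart for these genes. Wistar N replicate 1 lay above the other 3 Wistar N arrays for 35 of the 52 receptor genes and below them for 7, against 42.9% and 29% of all genes. Wistar N replicate 4 lay below its group for 26 of the 52 and above it for none, against 31.9% and 19.7% of all genes. By the running numbers in the labels, Wistar N replicate 1 is the only Wistar N array of label set 1. That set also holds both Wistar S arrays, WAR N replicates 1 and 2 and WAR S replicates 1, 2 and 5. The remaining arrays, Wistar N replicate 4 among them, form label set 2. No source calls these sets batches. WAR S replicate 4 did not stand apart for the receptor genes (above its group for 9 and below it for 15 of 52). It had far higher values than the other arrays for some genes of serotonin neurons. *Tph2*, the enzyme that makes serotonin in neurons, stood at 9.94 on this array, against 5.79 to 5.98 on the other WAR S arrays and 5.93 and 6.31 in Wistar S. The serotonin transporter *Slc6a4* stood at 7.62 there, against 6.03 to 6.20 on the other WAR S arrays. Not all 7 markers of serotonin neurons stood out on it. *Slc22a3* was at 5.64 there, against 5.64 to 5.69 on the other WAR S arrays, and *Gata2* at 6.95, against 6.66 to 7.05. How leaving out Wistar N replicate 1 or WAR S replicate 4 moved the calls is given with the results.

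Probe sets differ in how strongly they bind, so the level of one gene is not a measure of its amount against another. As a yardstick of dim probe sets, 53 olfactory receptor genes, which serve in the nose, had a median log2 level of 4.89 in stimulated and 4.77 in naïve arrays, with a 95th percentile of 6.16 and 6.13. By the mean over the arrays, 39 of the 52 receptor genes lay above that percentile in stimulated arrays and 38 in naïve arrays, 37 of them in both, against 75.5% and 74.1% of all genes. The 12 that did not pass it in either part were *Adra1b*, *Adrb3*, *Hrh4*, *Htr2b*, *Htr3b* and the nicotinic subunits *Chrna1*, *Chrna5*, *Chrna9*, *Chrnb1*, *Chrnb3*, *Chrnd* and *Chrng*. Several of these are known from other organs, such as *Chrna1*, *Chrnb1*, *Chrnd* and *Chrng* from the muscle endplate, *Adrb3* from fat and *Chrna9* from cochlear hair cells. The brightest probe set of each family was that of *Htr2c*, *Drd2*, *Adra2c*, *Adrb1*, *Chrm2*, *Chrnb2* and *Hrh3*. *Htr2c*, a Gq-coupled serotonin receptor, reached percentile 95.1 of all genes in stimulated and 96.4 in naïve arrays, and *Chrm2*, a Gi-coupled muscarinic receptor, percentile 93.4 and 94.1.

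**Figure D1:**
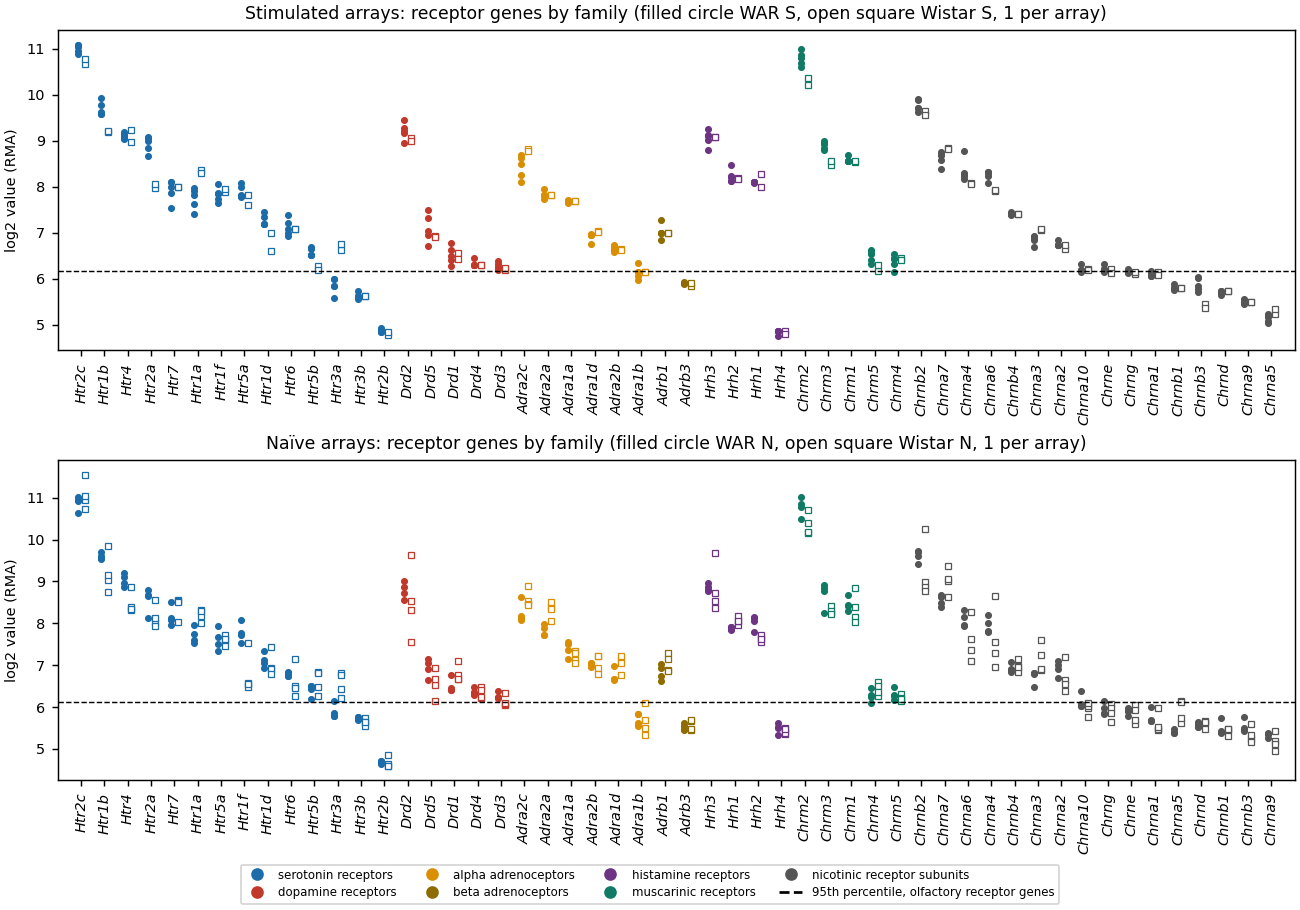
Deposited log2 value of each of the 52 receptor genes on every array, with stimulated arrays above and naïve arrays below (filled circles WAR, open squares Wistar, 1 symbol per array). Genes are ordered by mean level within their family, and the dashed line is the 95th percentile of 53 olfactory receptor genes, at 6.16 in stimulated and 6.13 in naïve arrays.

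Between WAR S and Wistar S, 2 of the 52 receptor genes passed an adjusted p of 0.05 (limma over all 15 arrays, Benjamini-Hochberg over 14506 genes), where 0.414% of all genes did. *Htr2a* was higher in WAR S, where 0.214% of all genes were, and *Htr3a* was lower, where 0.2% were. Between WAR N and Wistar N, 12 receptor genes passed, or 23.1% of them, close to the 20.9% of all genes that did. *Htr1f*, *Htr4*, *Chrm2*, *Chrm3* and *Hrh2* were higher in WAR N (5 genes, with 11.6% of all genes called higher), and *Htr1a*, *Htr3a*, *Adra1d*, *Adra2a*, *Chrna3*, *Chrna5* and *Chrna7* were lower (7 genes, with 9.38% of all genes called lower). No dopamine receptor or beta adrenoceptor passed in either comparison. At an unadjusted p of 0.05, 10 of the 52 passed in stimulated arrays (6.85% of all genes) and 19 in naïve arrays (34.5%).

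The shared estimate of the spread bears on these counts. It lies between the wider spread of naïve arrays and the narrower one of stimulated arrays. It therefore tends to make naïve p-values smaller, and stimulated p-values larger, than a fit of that part alone. In a fit of the 7 stimulated arrays alone, *Htr2a* and *Chrm3* were called higher in WAR S (1.19% of all genes) and *Htr3a* lower (0.703%), which makes 3 genes against 1.89% of all genes. In a fit of the 8 naïve arrays alone, *Htr1f* was called higher in WAR N (3.24% of all genes) and *Adra2a*, *Htr1a* and *Htr3a* lower (2.82%), which makes 4 genes against 6.06%. The median log2 difference of the 52 genes was 0.02 in stimulated and 0.06 in naïve arrays, against 0.01 and 0.02 over all genes, and differences below 0 made up 16 of 52 in stimulated (44.4% of all genes) and 19 of 52 in naïve arrays (45.5%). No receptor gene reached a fold change of 2 with an unadjusted p of 0.05, where 0.269% of all genes did in stimulated and 1.76% in naïve arrays.

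**Figure D2:**
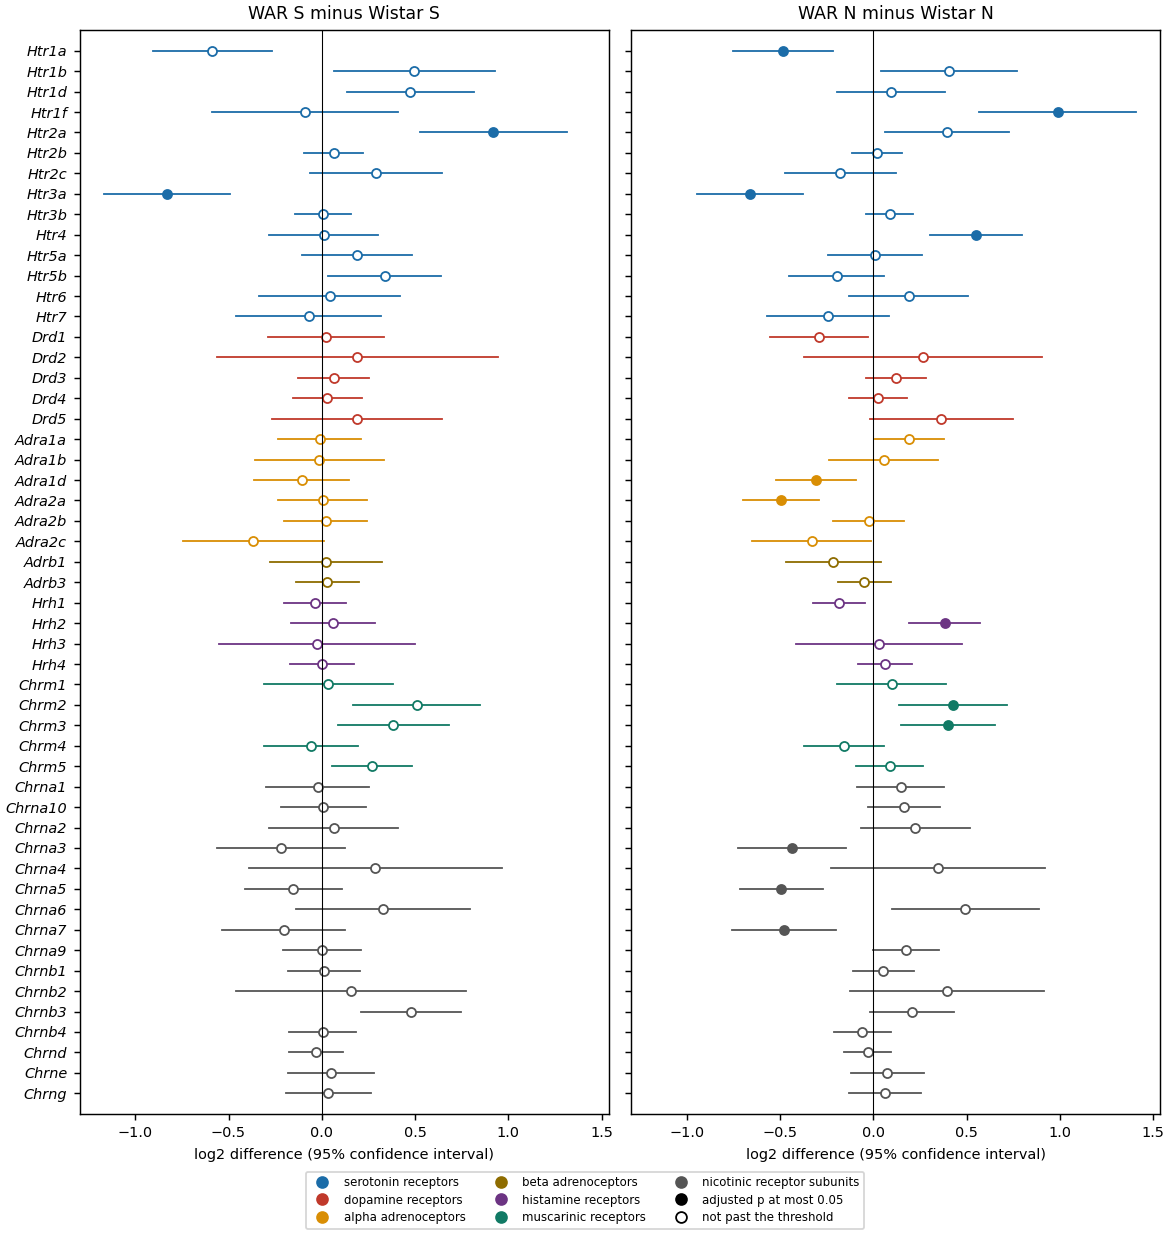
Log2 difference of WAR minus Wistar for each receptor gene with its 95% confidence interval from limma, in stimulated arrays (left) and naïve arrays (right), coloured by family. Filled points passed an adjusted p of 0.05, which were 2 genes on the left and 12 on the right.

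The serotonin receptors held the largest differences of the set in both comparisons. *Htr3a* (probe set 10917123) encodes the subunit that every 5-HT3 channel needs, and it was lower in WAR rats with and without sound. Its log2 values were 5.99, 5.85, 5.58, 5.84 and 6.00 in WAR S, against 6.61 and 6.75 in Wistar S. In naïve rats they were 5.86, 5.79, 6.15 and 5.78 in WAR N, against 6.81, 6.23, 6.76 and 6.44 in Wistar N. The WAR arrays lay below all Wistar arrays in both parts. The difference was −0.83 (standard error 0.16, 1.78-fold, adjusted p = 0.0331) in stimulated arrays and −0.66 (standard error 0.13, 1.58-fold, adjusted p = 0.00435) in naïve arrays, and by an exact two-sided permutation test p was 0.0476 and 0.0286, the smallest values that 2 against 5 and 4 against 4 arrays allow. Other receptor genes reached these permutation values as well, *Htr1a* and *Chrna3* in both parts, and 4 against 4 arrays without overlap always give 0.0286. *Htr3a* is dim: its mean over the stimulated arrays was below the olfactory yardstick, while that over the naïve arrays was above it. In the stimulated arrays the call was kept without WAR S replicate 5 and was lost when any other stimulated array was left out, with adjusted p between 0.0557 and 0.572 (0.07 without WAR S replicate 4). In the naïve arrays it held whichever naïve array was left out, with an adjusted p of at most 0.0172. *Htr3b*, its neighbour on the same chromosome with no gene between them and its partner in mixed 5-HT3 channels, differed by 0.01 in stimulated and 0.09 in naïve arrays and did not pass in either.

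*Htr2a* (probe set 10781467), a Gq-coupled receptor of neurons in cortex and brainstem, had log2 values of 9.00, 8.84, 9.08, 8.66 and 9.06 in WAR S, against 7.97 and 8.05 in Wistar S. The lowest WAR S array was WAR S replicate 4, and it still lay above both Wistar S arrays. WAR S averaged 8.93 ± 0.18 with n = 5 and Wistar S 8.01 ± 0.06 with n = 2 (means ± SD), which differ by 0.92 (standard error 0.18, 95% confidence interval 0.52 to 1.32, 1.89-fold, adjusted p = 0.0469). The call was kept without WAR S replicate 4 (0.99, adjusted p = 0.0433) and lost when any other stimulated array was left out, with adjusted p between 0.083 and 0.505 and a difference of at least 0.88. In naïve rats the values were 8.79, 8.66, 8.13 and 8.67 in WAR N, against 8.57, 8.03, 8.14 and 7.93 in Wistar N. There the groups overlapped and the difference of 0.40 did not pass (adjusted p = 0.0864), but without Wistar N replicate 1 it was 0.53 and passed (adjusted p = 0.00745).

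*Htr1a* (probe set 10812879) encodes the Gi-coupled 5-HT1A receptor, which is also the autoreceptor that silences raphe neurons. Its values were 7.63, 7.91, 7.82, 7.41 and 7.98 in WAR S, against 8.37 and 8.31 in Wistar S, and 7.97, 7.75, 7.60 and 7.54 in WAR N, against 8.31, 8.17, 8.29 and 8.01 in Wistar N. As with *Htr3a*, no WAR array reached a Wistar array of its part. The gene passed in naïve arrays (−0.48, standard error 0.13, 1.40-fold, adjusted p = 0.0153) and did not in stimulated arrays, where its difference was −0.59 (adjusted p = 0.137, and 0.2 without WAR S replicate 4, whose value was the lowest). The naïve call held whichever naïve array was left out, with adjusted p up to 0.0475.

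*Htr1f* (probe set 10752663), a Gi-coupled receptor known as a target of migraine drugs, showed the largest difference of any receptor gene in naïve rats. Its values were 8.09, 7.52, 7.76 and 7.71 in WAR N, against 7.54, 6.47, 6.57 and 6.56 in Wistar N. The only overlap came from Wistar N replicate 1, which stood above the other 3 Wistar N arrays. The difference was 0.99 (standard error 0.20, 1.98-fold, adjusted p = 0.00406), and without that array it was 1.24 (adjusted p = 1.86e-06). Within label set 1, where that array is the only Wistar N array, the difference was 0.27, and within label set 2 it was 1.20. In stimulated rats the values were 7.83, 7.72, 7.86, 7.65 and 8.05 in WAR S, against 7.87 and 7.95 in Wistar S, and the groups overlapped (−0.09, adjusted p = 1).

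*Htr4* (probe set 10802151), which couples to Gs and raises cyclic AMP, followed the same pattern. It averaged 9.03 ± 0.15 in WAR N and 8.48 ± 0.26 in Wistar N (SD, n = 4 each), a difference of 0.55 (standard error 0.12, 1.47-fold, adjusted p = 0.00523). Wistar N replicate 1, at 8.88, again lay above the other Wistar N arrays, at 8.31 to 8.39. Without it the difference was 0.68 (adjusted p = 2.11e-05). Within label set 1 the difference was 0.16 and within label set 2 it was 0.68. In the fit of naïve arrays alone *Htr4* narrowly missed the threshold (adjusted p = 0.0513). In stimulated rats *Htr4* averaged 9.11 in WAR S and 9.10 in Wistar S (0.01, adjusted p = 1).

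The other serotonin receptors did not pass in either comparison. The terminal autoreceptor *Htr1b* averaged 9.70 ± 0.15 in WAR S and 9.20 ± 0.01 in Wistar S without overlap (0.50, adjusted p = 0.585), and its naïve difference was 0.40 (adjusted p = 0.106), or 0.62 without Wistar N replicate 1 (adjusted p = 0.000264). *Htr1d*, a Gi-coupled receptor of nerve endings, differed by 0.47 in stimulated arrays (adjusted p = 0.379) and by 0.09 in naïve arrays, or 0.23 without Wistar N replicate 1 (adjusted p = 0.0941). *Htr5b*, a receptor that rodents express and humans have lost, differed by 0.34 (adjusted p = 0.614) and by −0.20 (adjusted p = 0.263). *Htr2c* averaged 11.01 in WAR S and 10.72 in Wistar S, and 10.89 in WAR N and 11.06 in Wistar N, so its difference changed sign between the parts (0.29 and −0.18). *Htr2b*, *Htr5a*, *Htr6* and *Htr7* differed by −0.07 to 0.19 in stimulated arrays and by −0.24 to 0.19 in naïve arrays. Without Wistar N replicate 1, *Htr6* differed by 0.37 (adjusted p = 0.00616) and *Htr7* by −0.37 (adjusted p = 0.0445) in naïve arrays. Over the 14 serotonin receptors, 10 differences were above 0 in stimulated and 9 in naïve arrays, with medians of 0.0533 and 0.0551.

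**Figure D3:**
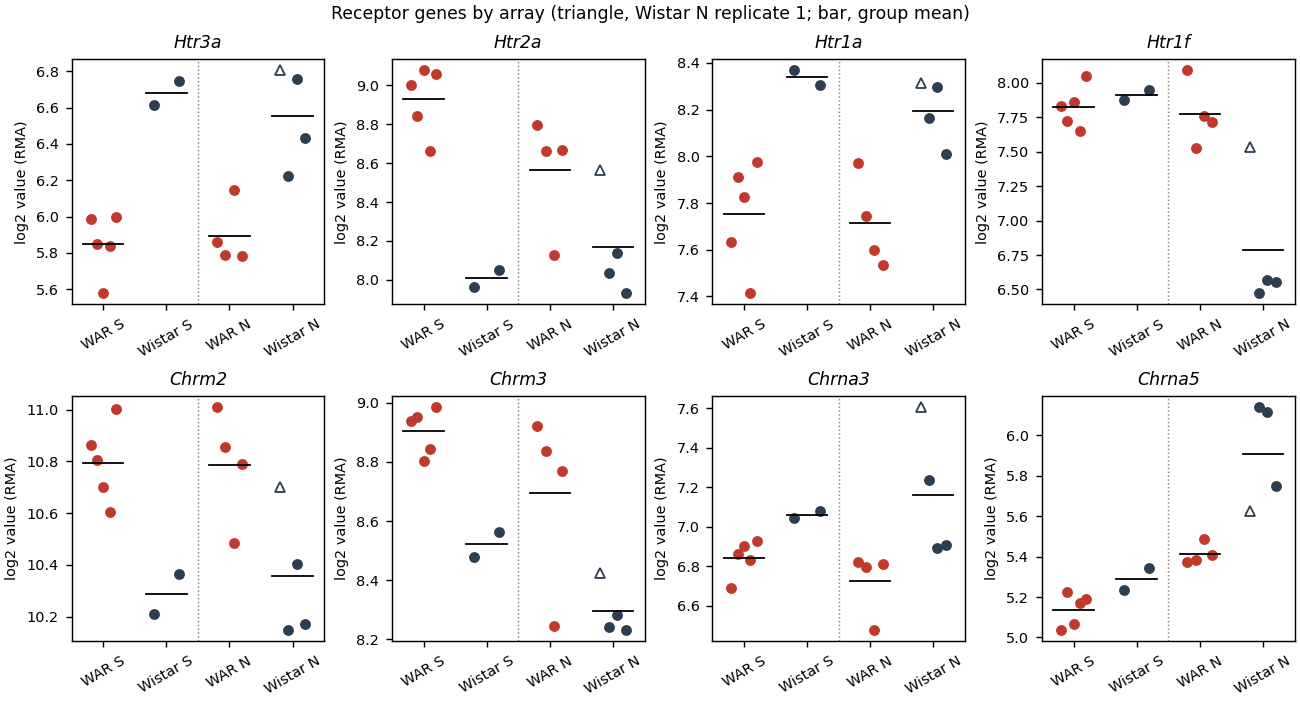
Log2 value of 8 receptor genes on each array, with WAR left of Wistar for stimulated and for naïve arrays (bars are group means, and the triangle is Wistar N replicate 1). *Htr3a* and *Htr1a* show WAR below Wistar without overlap in both parts, at 5.58 to 6.00 in WAR S against 6.61 and 6.75 in Wistar S for *Htr3a*, and *Htr2a* shows WAR S above Wistar S.

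Among the muscarinic receptors, the G protein-coupled receptors of acetylcholine, *Chrm2* and *Chrm3* were higher in WAR N than in Wistar N and no member was lower. *Chrm2* (probe set 10854544) couples to Gi and is the main autoreceptor of cholinergic neurons. Its values were 11.01, 10.85, 10.48 and 10.79 in WAR N, against 10.70, 10.15, 10.40 and 10.17 in Wistar N, with an overlap of WAR N replicate 3 and Wistar N replicate 1. The difference was 0.43 (standard error 0.13, 1.35-fold, adjusted p = 0.0364). The 5 WAR S arrays ran from 10.61 to 11.00, above the 10.21 and 10.36 of Wistar S, a difference of 0.51 that did not pass (standard error 0.16, adjusted p = 0.301). *Chrm3* (probe set 10795898), which couples to Gq, had values of 8.92, 8.84, 8.25 and 8.77 in WAR N, against 8.42, 8.24, 8.28 and 8.23 in Wistar N. The difference was 0.40 (standard error 0.12, 1.32-fold, adjusted p = 0.0276), with WAR N replicate 3 at the level of the Wistar N arrays. In stimulated arrays *Chrm3* ran from 8.80 to 8.99 in WAR S, above the 8.48 and 8.56 of Wistar S. This difference of 0.38 missed the threshold with the shared spread (adjusted p = 0.456) and passed it in the fit of stimulated arrays alone (adjusted p = 0.0367, and 0.0538 without WAR S replicate 4).

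Both naïve muscarinic calls depended on single arrays. They were lost without Wistar N replicate 2, 3 or 4 and without WAR N replicate 1, 2 or 4, with differences of 0.35 to 0.44 for *Chrm2* and 0.32 to 0.40 for *Chrm3*, and kept without Wistar N replicate 1 or WAR N replicate 3. In the fit of naïve arrays alone neither passed (adjusted p = 0.121 and 0.128). *Chrm5*, a Gq-coupled receptor known from midbrain dopamine neurons, was above Wistar S on all WAR S arrays (6.32 to 6.63, against 6.15 and 6.29) without passing (0.27, adjusted p = 0.48). *Chrm1* and *Chrm4* differed by 0.04 and −0.06 in stimulated and by 0.10 and −0.16 in naïve arrays. The median of the 5 muscarinic receptors was 0.269 in stimulated and 0.0989 in naïve arrays, against 0.0103 and 0.0228 over all genes.

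The nicotinic subunits *Chrna3*, *Chrna5* and *Chrna7* were lower in WAR N than in Wistar N, and none of the 16 was called higher. *Chrna5* and *Chrna3* are neighbours in 1 cluster with *Chrnb4*, with no gene between them on chromosome 8 of the RefSeq assembly GRCr8, and their products join in the same receptors. The 250 bases before their starts are shown because these neighbours differed in the same direction, with GGGCGG, the letters of the GC box, in capitals on either strand (CCGCCC on the strand printed where the match is on the other one):
Chrna5 (chr8:64265629-64265878, + strand): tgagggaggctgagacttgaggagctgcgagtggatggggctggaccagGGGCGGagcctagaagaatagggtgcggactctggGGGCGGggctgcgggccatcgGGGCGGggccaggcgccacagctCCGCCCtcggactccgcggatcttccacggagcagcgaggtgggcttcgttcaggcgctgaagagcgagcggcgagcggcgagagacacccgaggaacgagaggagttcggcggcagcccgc
Chrna3 (chr8:64311252-64311501, - strand): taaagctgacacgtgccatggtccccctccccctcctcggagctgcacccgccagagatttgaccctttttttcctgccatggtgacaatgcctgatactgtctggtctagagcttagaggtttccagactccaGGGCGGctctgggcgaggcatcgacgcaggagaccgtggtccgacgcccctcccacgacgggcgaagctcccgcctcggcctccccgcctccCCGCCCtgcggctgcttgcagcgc
The *Chrna5* window held 4 matches and the *Chrna3* window 2, and 30.5% of the 33469 promoters of this length in the table held at least 1. Of the 41 receptor genes with a promoter in the table, 20 held a match in at least 1 of their promoters. This counts genes and the 30.5% counts single promoters, so the shares are not directly comparable. Such matches describe letters only, and no binding was measured here.

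*Chrna5* (probe set 10910133), an accessory subunit that joins the ring without a binding site of its own, had values of 5.37, 5.38, 5.49 and 5.41 in WAR N, against 5.62, 6.14, 6.11 and 5.75 in Wistar N. It is dim in both parts, with all WAR arrays below the olfactory yardstick. The WAR N arrays lay below all Wistar N arrays, and the difference was −0.49 (standard error 0.10, 1.41-fold, adjusted p = 0.00519). In stimulated arrays its values were 5.04, 5.22, 5.07, 5.17 and 5.19 in WAR S, against 5.24 and 5.34 in Wistar S, again without overlap, with a difference of −0.15 that did not pass (adjusted p = 1). *Chrna3* (probe set 10917597), which pairs with *Chrnb4* in autonomic ganglia and the habenula, had values of 6.82, 6.80, 6.48 and 6.81 in WAR N, against 7.61, 7.24, 6.90 and 6.91 in Wistar N. Its difference was −0.43 (standard error 0.14, 1.35-fold, adjusted p = 0.0352), and without Wistar N replicate 1, the highest array, it was −0.29 (adjusted p = 0.0361). The *Chrna3* call was lost without Wistar N replicate 2 (adjusted p = 0.0868) and without any one of the WAR N arrays (adjusted p = 0.0504 to 0.107), while that of *Chrna5* was kept without any one naïve array. In the fit of naïve arrays alone neither passed (adjusted p = 0.145 for *Chrna3* and 0.0532 for *Chrna5*). In stimulated arrays *Chrna3* ran from 6.69 to 6.93 in WAR S, below the 7.05 and 7.08 of Wistar S (−0.22, adjusted p = 1). The third gene of the cluster, *Chrnb4*, differed by 0.00 in stimulated and −0.06 in naïve arrays.

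Receptor genes with every WAR array below every Wistar array in both parts were thus *Htr1a*, *Htr3a*, *Chrna3* and *Chrna5*, 4 of 52, where 1.37% of all genes showed this. No receptor gene lay above in both parts without overlap, where 2.53% of all genes did. In stimulated arrays alone, 11 of the 52 lay above (12.4% of all genes) and 7 below (8.22%), and in naïve arrays 1 lay above (7.93%) and 6 below (5.51%).

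*Chrna7* (probe set 10722532) forms the calcium-permeable receptor of a single kind of subunit that binds bungarotoxin. Its values were 8.68, 8.39, 8.62 and 8.50 in WAR N, against 8.63, 9.02, 9.38 and 9.05 in Wistar N. Only Wistar N replicate 1 overlapped with WAR N, and the difference was −0.48 (standard error 0.13, 1.39-fold, adjusted p = 0.0195), or −0.61 without that array (adjusted p = 0.000414). The call was lost without Wistar N replicate 3 (adjusted p = 0.06) and without WAR N replicate 2 (adjusted p = 0.053). It was also lost in the fit of naïve arrays alone (adjusted p = 0.0899). Within label set 1 the difference was −0.10 and within label set 2 −0.59. In stimulated arrays *Chrna7* ran from 8.38 to 8.75 in WAR S, below the 8.84 and 8.81 of Wistar S (−0.20, adjusted p = 1).

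The subunits *Chrnb2*, *Chrna4* and *Chrna6* of the high-affinity brain receptors had naïve differences above 0 that did not pass, and their values turned on Wistar N replicate 1. *Chrnb2*, the subunit that these receptors share, had values of 9.62, 9.41, 9.72 and 9.71 in WAR N, against 10.26, 9.00, 8.86 and 8.76 in Wistar N. Its difference was 0.40 (adjusted p = 0.269) over all arrays and 0.74 without Wistar N replicate 1 (adjusted p = 2.37e-05), and it was −0.75 within label set 1 and 0.85 within label set 2. *Chrna4*, its usual partner, had values of 8.01, 7.81, 7.79 and 8.21 in WAR N, against 8.65, 7.29, 7.55 and 6.96 in Wistar N, with a difference of 0.35 (adjusted p = 0.389), or 0.69 without that array (adjusted p = 0.00266). *Chrna6*, known from dopamine neurons, differed by 0.49 (adjusted p = 0.071), or 0.72 without it (adjusted p = 0.000252). In stimulated arrays all 5 values of *Chrna6* in WAR S (8.07 to 8.32) lay above the 7.90 and 7.94 of Wistar S, as did those of its neighbour *Chrnb3* (5.71 to 6.03, against 5.44 and 5.35). Neither passed there (0.33, adjusted p = 1, for *Chrna6* and 0.48, adjusted p = 0.164, for the dim *Chrnb3*). *Chrna1*, *Chrna2*, *Chrna9*, *Chrna10*, *Chrnb1*, *Chrnd*, *Chrne* and *Chrng* differed by −0.03 to 0.06 in stimulated and by −0.03 to 0.22 in naïve arrays, and none passed.

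**Figure D4:**
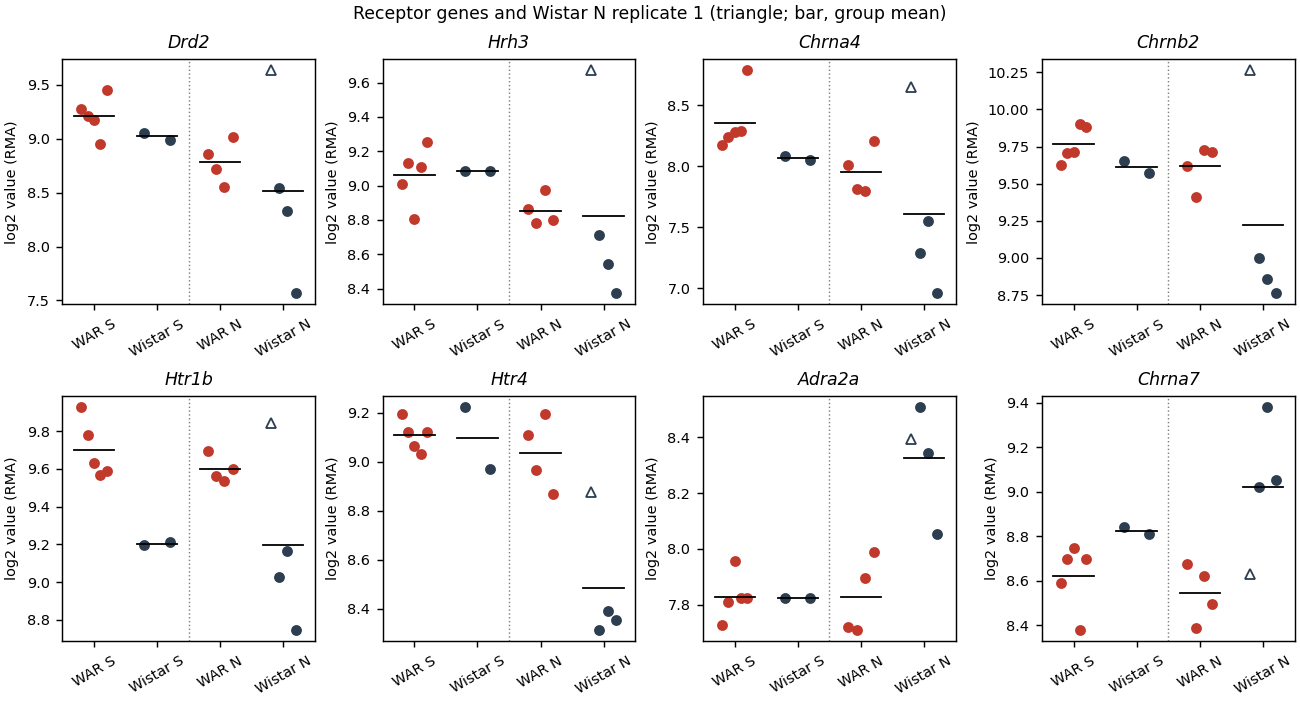
Log2 value of 8 receptor genes on each array, chosen to show Wistar N replicate 1 (triangle), with WAR left of Wistar for stimulated and for naïve arrays and bars at the group means. For *Chrnb2* this array stands at 10.26, above WAR N (9.41 to 9.72) and the other Wistar N arrays (8.76 to 9.00), whereas for *Adra2a* it lies among the other Wistar N arrays.

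The alpha adrenoceptors, which bind noradrenaline and adrenaline, gave no call in stimulated arrays and 2 lower in WAR N. *Adra2a* (probe set 10940590), the Gi-coupled autoreceptor of noradrenergic neurons, had values of 7.72, 7.71, 7.89 and 7.99 in WAR N, against 8.39, 8.51, 8.34 and 8.05 in Wistar N. The groups did not overlap, and the difference was −0.50 (standard error 0.09, 1.41-fold, adjusted p = 0.00347). It passed whichever naïve array was left out, with adjusted p up to 0.0136, and was −0.68 within label set 1 and −0.36 within label set 2. In stimulated arrays *Adra2a* averaged 7.83 in WAR S and 7.82 in Wistar S (0.00, 95% confidence interval −0.24 to 0.25). *Adra1d*, a Gq-coupled receptor, averaged 6.74 ± 0.16 in WAR N and 7.04 ± 0.19 in Wistar N (−0.31, standard error 0.10, adjusted p = 0.0438), with WAR N replicate 4, at 6.98, among the Wistar N arrays. This call was lost without Wistar N replicate 2 or 3 and without WAR N replicate 1, 2 or 3 (adjusted p = 0.0954 to 0.128), and also in the fit of naïve arrays alone (adjusted p = 0.165). *Adra2c*, another Gi-coupled autoreceptor, was below Wistar S on all WAR S arrays (8.10 to 8.69, against 8.82 and 8.77), a difference of −0.37 (adjusted p = 0.753), and its naïve difference was −0.33 (adjusted p = 0.133). *Adra1a*, *Adra1b* and *Adra2b* differed by −0.01 to 0.02 in stimulated and by −0.02 to 0.19 in naïve arrays. The beta adrenoceptors *Adrb1* and *Adrb3*, which couple to Gs, differed by 0.02 and 0.03 in stimulated and by −0.22 and −0.05 in naïve arrays.

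None of the 5 dopamine receptors passed. *Drd2*, the Gi-coupled receptor and autoreceptor, had the widest spread of any receptor gene in Wistar N, and its values were 8.86, 8.72, 8.55 and 9.01 in WAR N, against 9.63, 8.54, 8.33 and 7.57 in Wistar N. Its difference was 0.27 (95% confidence interval −0.37 to 0.91, adjusted p = 0.56), −0.84 within label set 1 and 0.64 within label set 2, and 0.64 without Wistar N replicate 1 (adjusted p = 0.013). The Gs-coupled receptors *Drd1* and *Drd5* differed by −0.29 (adjusted p = 0.105) and 0.37 (adjusted p = 0.166) in naïve arrays. In stimulated arrays the 5 genes differed by 0.02 to 0.19. Without WAR S replicate 4 the stimulated difference of *Drd5* was 0.09, against 0.19 with it. That array held the highest value of *Drd5* (7.49) and the lowest of *Drd2* (8.95) among the WAR S arrays. *Drd3* and *Drd4*, both Gi-coupled, differed by 0.12 and 0.03 in naïve arrays.

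Of the histamine receptors, *Hrh2* (probe set 10797469), the Gs-coupled receptor best known from the stomach, was higher in naïve WAR rats. Its values were 8.13, 7.80, 8.14 and 8.05 in WAR N, against 7.67, 7.57, 7.73 and 7.62 in Wistar N. It was the only receptor gene with all WAR N arrays above all Wistar N arrays, by 0.38 (standard error 0.09, 1.30-fold, adjusted p = 0.00916, exact two-sided permutation p = 0.0286). That permutation p follows from the lack of overlap. The difference held whichever naïve array was left out, with adjusted p up to 0.032, and it narrowly missed the threshold in the fit of naïve arrays alone (adjusted p = 0.0533). In stimulated arrays it averaged 8.23 in WAR S and 8.17 in Wistar S (0.06, adjusted p = 1). *Hrh1*, the Gq-coupled receptor blocked by sedating antihistamines, averaged 7.88 ± 0.03 in WAR N and 8.07 ± 0.08 in Wistar N without overlap, a difference of −0.18 that did not pass (adjusted p = 0.0621), or −0.22 without Wistar N replicate 1 (adjusted p = 0.0188). The autoreceptor *Hrh3* differed by −0.02 in stimulated and by 0.03 in naïve arrays, and by 0.31 without Wistar N replicate 1 (9.67, against 8.37 to 8.71 on the other Wistar N arrays). *Hrh4*, known from blood cells, differed by 0.00 and 0.06.

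Whether the strain difference itself differed between stimulated and naïve rats was tested as the stimulated minus the naïve strain difference. None of the 52 receptor genes passed an adjusted p of 0.05, where 0.103% of all genes did (0.062% above 0 and 0.0414% below it), and 7 passed an unadjusted p of 0.05 (15% of all genes). These were *Htr1f* (−1.08, standard error 0.30, adjusted p = 0.135), *Adra2a* (0.50, adjusted p = 0.148), *Htr4* (−0.54, adjusted p = 0.189), *Htr5b* (0.53, adjusted p = 0.202), *Hrh2* (−0.32, adjusted p = 0.291), *Htr2a* (0.52, adjusted p = 0.325) and *Htr2c* (0.47, adjusted p = 0.326). *Htr1f* alone passed a fold of 2 with an unadjusted p of 0.05 (1.3% of all genes). The calls of 12 genes in naïve and 2 in stimulated arrays therefore do not show that the strains differed more in one part than in the other. Without Wistar N replicate 1 the count was 6, with *Htr1f* (−1.33), *Htr4* (−0.67) and *Chrnb2* (−0.59) below 0 and *Htr2c* (0.58), *Adra2a* (0.48) and *Chrna5* (0.44) above it, where 20.4% of all genes passed. The signs of the 2 strain comparisons, which share no array, matched for 39 of the 52 receptor genes (75%) and for 58.1% of all genes.

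Leaving out Wistar N replicate 1 also moved the naïve count itself. Then 21 receptor genes were called higher in WAR N (22.6% of all genes) and 9 lower (18.5%). All 12 genes called with every array were among them. The added ones that were higher were *Htr1b*, *Htr2a*, *Htr6*, *Drd2*, *Drd3*, *Drd5*, *Adra1a*, *Hrh3*, *Chrm1*, *Chrna1*, *Chrna2*, *Chrna4*, *Chrna6*, *Chrna9*, *Chrnb2* and *Chrnb3*, and the added ones that were lower were *Htr7* and *Hrh1*. In a fit of naïve arrays alone without that array, 15 were higher (17.2% of all genes) and 6 lower (15.8%).

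The genes that make, move and break down the transmitters gave no call in stimulated arrays. *Ddc*, the decarboxylase that makes both dopamine and serotonin, was higher in naïve WAR rats, at 7.73, 7.86, 7.72 and 7.92 in WAR N, against 7.59, 6.83, 6.81 and 6.93 in Wistar N (0.76, standard error 0.21, adjusted p = 0.0219). In stimulated arrays it ran from 7.91 to 8.02 on 4 WAR S arrays and stood at 8.94 on WAR S replicate 4, all above the 7.21 and 7.28 of Wistar S (0.90, adjusted p = 0.215). Of the 10 synthesis genes measured, *Spr*, which makes the cofactor tetrahydrobiopterin, was the other one called in naïve arrays (−0.37, adjusted p = 0.00602). *Spr* did not pass in the fit of naïve arrays alone (adjusted p = 0.0651). None of the 9 transporter genes passed in either comparison. WAR S replicate 4 stood alone among the WAR S arrays for *Slc18a2*, the vesicular monoamine transporter (7.25, against 5.58 to 5.70), and *Slc5a7*, the choline transporter (7.62, against 6.31 to 6.42), as it did for *Tph2* and *Slc6a4*. Its values of *Htr1a* (7.41) and *Htr7* (7.54) were the lowest of WAR S, and the part of this array's composition in the receptor values was not tested beyond leaving it out.

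Among 8 genes of transmitter breakdown, 2 passed in naïve arrays, *Bche* and *Aldh2*, a share near the 20.9% of all genes. *Bche*, the butyrylcholinesterase, had values of 7.84, 7.29, 7.43 and 7.90 in WAR N, against 6.74, 6.24, 6.58 and 6.28 in Wistar N (1.15, standard error 0.16, adjusted p = 0.00084). *Aldh2*, which oxidizes the aldehydes that monoamine oxidase leaves, had values of 7.42, 7.43, 8.10 and 7.77 in WAR N, against 8.71, 9.07, 8.97 and 9.13 in Wistar N (−1.29, standard error 0.16, adjusted p = 0.000384). Both had the same sign in stimulated arrays without passing (0.55, adjusted p = 0.43, and −0.62, adjusted p = 0.287). *Maoa*, *Maob* and *Ache* did not pass in either comparison.

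Of 14 genes for receptor partners and desensitization, 3 were lower in WAR N, *Ly6h*, *Dlg4* and *Grk2*, where 9.38% of all genes were lower and 20.9% were called in all. *Ly6h*, a membrane protein that limits α7 nicotinic receptors at the cell surface, had values of 7.93, 7.79, 8.34 and 7.99 in WAR N, against 8.82, 8.93, 9.14 and 8.72 in Wistar N (−0.89, standard error 0.13, adjusted p = 0.000934). In stimulated arrays its difference was 0.15 (adjusted p = 1). *Dlg4*, the postsynaptic scaffold PSD-95, differed by −0.75 (adjusted p = 6.69e-05) and *Grk2*, a kinase that desensitizes receptors, by −0.47 (adjusted p = 0.0259) in naïve arrays. The 13 Gα subunits gave 1 call, *Gna11*, which passes Gq-type signals (−0.60, adjusted p = 0.00167 in naïve arrays), and the 11 adenylyl cyclases and phospholipases Cβ gave 2, *Plcb4* (0.31) and *Plcb3* (−0.32), again near or below the 20.9% of all genes. In the fit of naïve arrays alone *Grk2*, *Plcb4* and *Plcb3* did not pass (adjusted p = 0.0946, 0.0941 and 0.1). In stimulated arrays no gene of these lists passed with the shared spread. In the fit of stimulated arrays alone 1 of the 14 receptor partners passed, where 1.89% of all genes did. It was *S100a10*, which was higher in WAR S by 0.65 (adjusted p = 0.0182, and 0.704 with the shared spread).

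**Figure D5:**
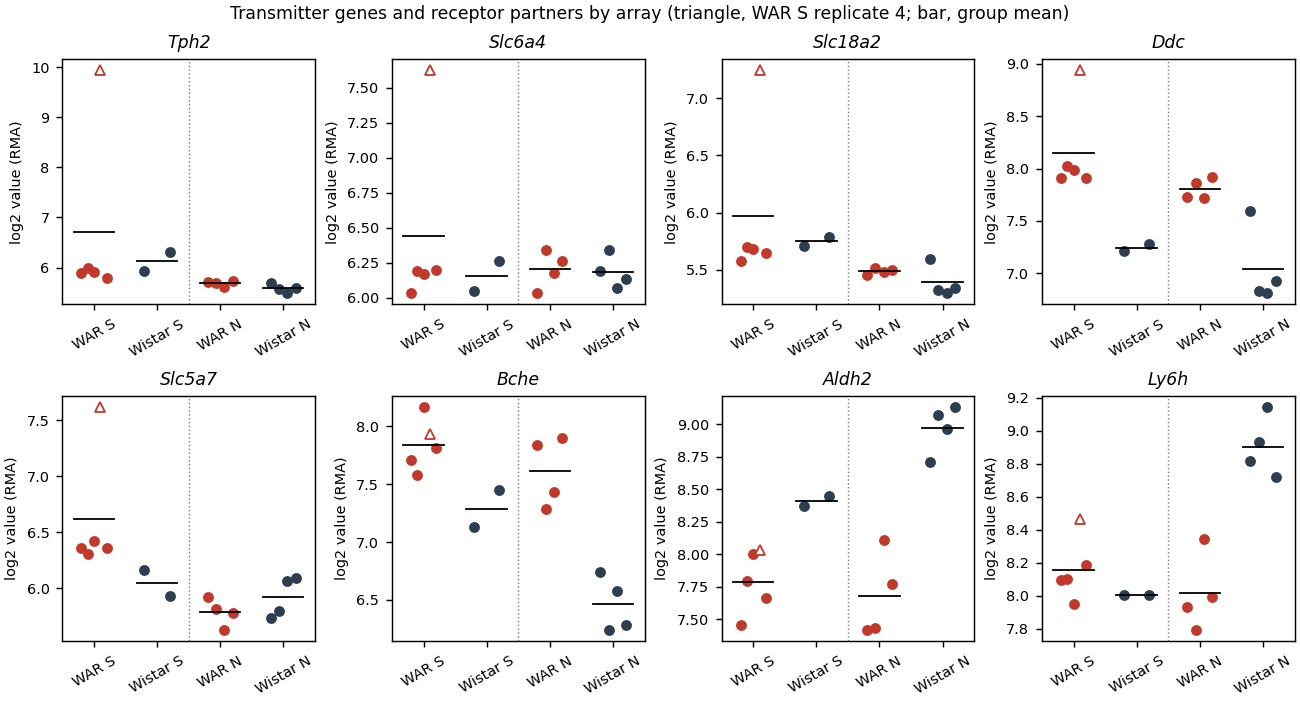
Log2 value of 8 genes that make, move or break down the transmitters or partner the receptors, with WAR left of Wistar for stimulated and for naïve arrays, bars at the group means and WAR S replicate 4 as a triangle. *Tph2* stands at 9.94 on that array and at 5.79 to 5.98 on the other WAR S arrays, whereas *Ddc*, *Bche* and *Aldh2* separate WAR N from Wistar N on all arrays.

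Some markers of other cells differed between the strains as well. All 11 measured endothelial markers were above 0 in both comparisons, where 44.4% and 45.5% of all genes were below 0. Of the 11, 4 were called higher in WAR S (0.214% of all genes) and 6 in WAR N (11.6%), with median differences of 0.754 and 0.704. Their mean level ran from 8.16 to 8.60 in WAR S, against 7.29 to 7.38 in Wistar S. In naïve arrays that level ran from 7.98 to 8.49 in WAR N, against 7.13 to 8.06 in Wistar N, with overlap. Of 9 microglia markers, 1 was called higher in WAR S (0.214% of all genes) and 4 in WAR N (11.6%), with medians of 0.0816 and 0.362. In stimulated arrays 5 of the 9 were above 0 and 4 below it, and in naïve arrays 7 and 2. *Csf1r* (−0.19 and −0.19) and *Itgam* (−0.12 and −0.28) were below 0 in both comparisons. *P2ry12*, a microglial purinergic receptor, passed in both comparisons (0.89, adjusted p = 0.000486, and 1.26, adjusted p = 1.89e-06). The haemoglobin gene *Hbb* was lower in both (−1.17, adjusted p = 0.0212, and −0.67, adjusted p = 0.0136). All 10 astrocyte markers were below 0 in stimulated arrays (median −0.264, none called). In naïve arrays 7 were below 0 and 3 above it (median −0.399), and 4 were called lower in WAR N, where 9.38% of all genes were. In the fit of naïve arrays alone 3 of the 10 passed, where 6.06% of all genes did. Of 13 neuron markers none passed in stimulated arrays and 5 were lower in WAR N, where 9.38% of all genes were. The 5 were *Slc17a6*, *Eno2*, *Nefm*, and *Gad1* and *Slc32a1* of inhibitory neurons. Only 2 of the 13, *Gad1* and *Slc32a1*, passed in the fit of naïve arrays alone (6.06% of all genes). Of the 13, 7 were above 0 in naïve arrays, with a median of 0.025, and *Gad2*, the other enzyme of GABA synthesis, differed by −0.05 (adjusted p = 0.836). Of 9 IC markers none passed in stimulated arrays. In naïve arrays *Gad1* (−0.83), *Slc17a6* (−0.62) and *Pvalb* (−0.64) were lower in WAR N, where 9.38% of all genes were. *Slc6a5* (0.50) was higher in WAR N, where 11.6% of all genes were. In the fit of naïve arrays alone *Gad1* and *Slc6a5* passed, and *Slc17a6* and *Pvalb* did not (adjusted p = 0.0784 and 0.0723). *Tfap2d*, a transcription factor of the IC, was bright in every group, at 11.03 in WAR S and 11.04 in Wistar S and at 10.99 in WAR N and 11.06 in Wistar N. Of 7 serotonin neuron markers none passed in stimulated arrays, where 6 were above 0 and 1 below it. In naïve arrays 5 were above 0 and 2 below it. There *Ddc* was called higher (11.6% of all genes) and *Gata3* lower (−0.43, adjusted p = 0.0457, with 9.38% of all genes lower). *Gata3* did not pass in the fit of naïve arrays alone (adjusted p = 0.0997). *Tph2* and *Slc6a4* were at 5.49 to 6.34 on all naïve arrays. The part of such markers in the receptor differences was not tested.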

How the data were processed

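IC RNA of 15 arrays was hybridised to Affymetrix Rat Gene 1.0 ST arrays. The log2 values were deposited after RMA, which the submitters' processing notes name without a version; no source used here gives a genome build. All 15 sample columns were used. Of 29214 probe sets, 15310 carried 1 gene symbol in the platform annotation, 323 several and 13581 none. The brightest probe set over the 15 arrays stood for each of 14506 genes. A mean per group was fitted with limma 3.58.1 (lmFit, eBayes; R 4.3.3), and p-values were adjusted by Benjamini-Hochberg over all 14506 genes, with a threshold of 0.05. In this text, adjusted p is that of limma, a call is a gene that passed it, and standard errors and 95% intervals are those of the fit. Stimulated and naïve arrays, which appear to have been normalized apart, were compared only through differences of strain differences. The 2 Wistar S arrays and the number of arrays limit the precision. The fit was tested on simulated data.

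The members and gene lists were chosen with earlier results of these data known. Any member could be named; those past the threshold, the 10 of smallest p per comparison and the brightest of each family were described first, and in other lists those past the threshold and up to 4 more. Genes in the plots and the examples of arrays that stood apart were chosen after their values were seen. Alternatives were fits of only the compared groups, label set or replicate number as a block, label set 1 only, the dimmest 33.3% of genes left out, the mean of probe sets, a trended robust prior, array weights, cyclic loess, a fold of 2 with an unadjusted p, and leaving out each array. The study's SAM test was not run. Promoter letters are from RefSeq (GRCr8).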

Additional observations from a re-analysis of the deposited data

Results flagged for a closer look

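Each of the 52 receptor genes was looked at in WAR S, WAR N and Wistar N for an array whose gap to its nearest neighbour was large against the range of its group (Dixon's ratio at the 95% level). This picked out 25 of 156 groups of values. Chance alone picks out about 1 in 20 groups, and the ties of the stimulated arrays make the ratio easy to pass there. Wistar N replicate 1 was picked out most often, for 6 genes. It lay above the other Wistar N arrays for *Chrnb2* (10.3, against 8.76 to 9.00), *Htr4* (8.88, against 8.31 to 8.39), *Htr1f* (7.54, against 6.47 to 6.57), *Chrna1* (5.99, against 5.46 to 5.52) and *Htr2b* (4.84, against 4.60 to 4.64), and below them for *Htr7* (8.02, against 8.52 to 8.55). Wistar N replicate 4 was low for *Chrnb1* (5.32, against 5.46 to 5.49).

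Among WAR N arrays, replicate 3 was high for *Chrna10* (6.38, against 6.03 to 6.07) and *Chrnb1* (5.73, against 5.38 to 5.43) and low for *Chrna3* (6.48, against 6.80 to 6.82). WAR N replicate 4 was high for *Adra1d* (6.98, against 6.64 to 6.66) and *Adra2c* (8.62, against 8.09 to 8.17). WAR N replicate 1 was high for *Chrna1* (6.00, against 5.67 to 5.70) and *Drd1* (6.77, against 6.40 to 6.45), and WAR N replicate 2 for *Drd3* (6.38, against 6.21 to 6.24).

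Among WAR S arrays, replicate 5 was high for *Chrna4* (8.79, against 8.18 to 8.29), *Chrm1* (8.69, against 8.55 on the others) and *Drd4* (6.45, against 6.30) and low for *Hrh1* (8.09, against 8.11). WAR S replicate 3 was high for *Chrna10* (6.33, against 6.15 to 6.19) and *Chrng* (6.20, against 6.12 to 6.14). WAR S replicate 2 was high for *Chrna2* (6.83, against 6.72) and low for *Hrh4* (4.76, against 4.85). WAR S replicate 1 was high for *Htr2b* (4.93, against 4.85 to 4.86), and WAR S replicate 4 was low for *Adra1d* (6.76, against 6.95 to 6.98).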

How the results depend on the processing

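The genes called and those of smallest p in each comparison kept their direction under every alternative run, and their values kept their side of the threshold 525 times, lost it 73 times and gained it 31 times. In stimulated arrays, where 1 gene was higher and 1 lower, the counts higher and lower were 2 and 1 with only the compared groups, 3 higher with the label set as a block, 6 higher within label set 1, 10 and 3 with array weights, and 0 and 0 at a fold of 2. With the dimmest 33.3% of genes left out 0 were lower, since *Htr3a* then is not tested. Leaving out 1 array gave 0 to 1 higher and 0 to 1 lower. In naïve arrays, where 5 were higher and 7 lower, they were 1 and 3 with only the compared groups, 1 and 11 within label set 1 (with Wistar N replicate 1 as its only Wistar N array), 13 higher with array weights, and 0 and 0 at a fold of 2. Leaving out 1 array gave 3 to 21 higher and 4 to 9 lower, and only naïve arrays without Wistar N replicate 1, a setting chosen after seeing the data, gave 15 higher. For the stimulated minus naïve strain difference, 0 in each direction, label set 1 gave 12 above, array weights 5 above and 3 below, and a fold of 2 gave 1 below. Leaving out 1 array gave 0 to 3 above and 0 to 3 below. A fit of only the compared groups was not run for this difference, which needs all 4 groups, and the mean of probe sets left the 52 genes as they were, since each has 1. The cause of these moves was not tested. Adjusted p over the alternatives ran from 2.19e-05 to 0.505 for *Htr2a* and from 7.46e-05 to 0.572 for *Htr3a* in stimulated arrays, and from 0.00211 to 0.0385 for *Htr3a* and from 0.00127 to 0.0448 for *Adra2a* in naïve arrays.

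Within label set 1 the naïve medians were −0.121 over all 52 genes, −0.416 for alpha adrenoceptors, −0.0428 for dopamine, −0.0777 for histamine receptors and −0.146 for nicotinic subunits, with the sign turned for all of these but the alpha adrenoceptors, and −0.065 for serotonin receptors, also turned. *Chrnb2*, *Drd2*, *Chrna4*, *Hrh3* and *Htr1b*, none of them called with all arrays, turned there too (*Chrnb2* −0.75, *Drd2* −0.84). Leaving out 1 array moved the stimulated median from −0.0268 to 0.0536 for histamine and from 0.199 to 0.339 for muscarinic receptors, and the naïve median from −0.0192 to 0.198 and from 0.0778 to 0.261. Cyclic loess moved the median of all genes by less than 0.1.

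Arrays of the same number did not deviate together (correlations from −0.306 to 0.0598), so the numbers do not pair the samples. With the replicate number as a block, 0 stimulated calls were left in either direction (*Htr2a* 0.996, adjusted p = 0.124; *Htr3a* −0.87, adjusted p = 0.144). In naïve arrays the block left 5 higher and 5 lower, without *Adra1d* (adjusted p = 0.0985) and *Chrna3* (adjusted p = 0.0535).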
